A study of Mus musculus with 32 samples.

Results

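Interferon response genes are the genes that a cell switches on after it senses an interferon, a signalling protein best known from defence against viruses. The set described here holds 46 such genes, chosen by symbol from what is known of the response, with earlier results of these data known, out of 54532 genes in the count table. All 46 passed the filter on low counts, which left 17121 genes to test. RNA was sequenced from tibialis anterior, a muscle of the front of the lower leg, in C57BL/6J mice that the labels call young or old, with no age in numbers. The 8 groups held 4 libraries each. They were old mice given BI01 at 7 and at 35 days after a barium chloride (labelled BaCl) injury, old mice given vehicle at 7 and at 35 days and uninjured, and young mice given vehicle at 7 and at 35 days and uninjured. BI01 is a senolytic, an agent meant to remove senescent cells; the target given by the study's title is the contact between p53 and MDM2. Barium chloride kills muscle fibres in the injected muscle, which then regenerates from satellite cells. Uninjured columns carry PBS in their names and belong to the 35-day set, and no uninjured columns go with day 7. Time after injury and collection set therefore cannot be told apart in any comparison of day 7 with uninjured muscle or of day 35 with day 7. There was no uninjured or young group with BI01. Libraries are named by group and by the number in their column.

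The alpha and beta interferons bind the receptor of IFNAR1 and IFNAR2, gamma interferon that of IFNGR1 and IFNGR2, and both receptors signal through Janus kinases to STAT transcription factors. STAT2 and IRF9 belong to a complex that binds the interferon-stimulated response element (ISRE) in promoters, whereas the gamma-activated site (GAS) is the element known from the response to gamma interferon. The products include sensors of viral RNA and DNA, enzymes that degrade or modify viral RNA, proteins that trap or block viruses, and factors that end the signal. Macrophages, which enter injured muscle in large numbers, are known to express many of these genes. The members fall into 9 roles: sensors, transcription factors, IFIT proteins, oligoadenylate synthetases, the ISG15 system, MX proteins and other effectors, the PARP9 complex with PARP14, interferon-inducible GTPases, and other induced proteins.

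Many promoters of the set hold the letters of the ISRE, and the sequences are shown for that reason. RefSeq promoters of build GRCm38.p6, from 250 bases before the start of a gene to 50 bases after it, were matched by symbol for 34 of the 46 members. A pair of GAAA runs with 2 bases of any kind between them, searched on both strands as the core of the ISRE, stood in the promoters of 18 of these 34 genes (52.9%), against 1079 of 27025 genes in the whole table (3.99%). The palindrome TTCNNNGAA, the core of the GAS, stood in 10 of the 34 (29.4%), against 2582 of 27025 genes (9.55%). Both were found in 6 members, and neither in 12. Of the windows below, each of 50 bases and read 5′ to 3′ on the strand of the gene, the first group shows ISRE letters in capitals; they were chosen to show single, paired and overlapping matches, and matches may lie on either strand. In Isg15, matches overlap in a run of 22 bases that starts 78 bases before the start of the gene. Ifit1 has a pair of matches, starting 104 and 85 bases before the start. Oas1a and Oas1g, close paralogs, carry the same 50 letters.
Isg15: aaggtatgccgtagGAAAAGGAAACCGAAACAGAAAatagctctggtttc
Ifit1: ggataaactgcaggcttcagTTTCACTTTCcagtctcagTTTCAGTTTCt
Oas3: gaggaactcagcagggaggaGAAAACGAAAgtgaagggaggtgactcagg
Oas1a: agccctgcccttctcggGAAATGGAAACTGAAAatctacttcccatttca
Oas1g: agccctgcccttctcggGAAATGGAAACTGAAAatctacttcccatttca
Stat2: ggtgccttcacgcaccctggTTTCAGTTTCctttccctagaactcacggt
Bst2: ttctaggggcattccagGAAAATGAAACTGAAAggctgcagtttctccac
Irgm1: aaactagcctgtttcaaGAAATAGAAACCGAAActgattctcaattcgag
Gbp3: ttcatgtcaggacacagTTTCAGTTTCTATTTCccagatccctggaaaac
Irf1 had no ISRE letters in its window, and the GAS letters started 90 bases before its start, shown in capitals.
Irf1: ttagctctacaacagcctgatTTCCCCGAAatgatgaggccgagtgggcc
The windows lie at chr4:156200861-156200910 (Isg15, minus strand), chr19:34640765-34640814 (Ifit1, plus strand), chr5:120777705-120777754 (Oas3, minus strand), chr5:120907513-120907562 (Oas1a, minus strand), chr5:120887599-120887648 (Oas1g, minus strand), chr10:128270256-128270305 (Stat2, plus strand), chr8:71537570-71537619 (Bst2, minus strand), chr11:48871418-48871467 (Irgm1, minus strand), chr3:142559982-142560031 (Gbp3, plus strand) and chr11:53769903-53769952 (Irf1, plus strand). A match is a description of letters, and a window without one says nothing of the factor. At day 7 in young muscle the median log2 fold change over uninjured muscle was 2.05 for the 18 members with ISRE letters and 1.99 for the 16 without. At day 7 in old vehicle muscle it was 2.03 with and 2.13 without. In old BI01 muscle at day 7 it was 1.89 with and 2.26 without. For the 12 members with no promoter in the table it was 3.14 in old BI01, 2.97 in old vehicle and 2.73 in young muscle. Those 12 members were Mx1, Mx2, Oas2, Ifi204, Parp14, Rtp4, Zbp1, Dhx58, Parp9, Ifi27, Ifi27l2a and Usp18.

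In the genome (mm10, coordinates of the count table) the members lie on 15 chromosomes, and 23 of them sit in 9 clusters with gaps of at most 100 kb. Oas2, Oas3, Oas1g and Oas1a share chr5:120730333-120907521, a span of 177 kb, and Oasl2 and Oasl1 share chr5:114896936-114937915. Ifit2, Ifit3 and Ifit1 lie together at chr19:34550694-34650009. Gbp7, Gbp3 and Gbp2 lie at chr3:142530342-142638008. Mx1 and Mx2 are neighbours at chr16:97447035-97560900, and Parp14, Dtx3l and Parp9 at chr16:35832874-35972605. Counts are whole-gene counts, and 20 of the 46 members overlap another annotated gene. Neither the counting tool nor its use of strand is given in the sources used here. Igtp and Irgm2 overlap and are close relatives, Parp9 and Dtx3l overlap, and Oas1a and Oas1g are close relatives, so how reads were split within these pairs is uncertain. The table lists Mx2 as a polymorphic pseudogene, and Mx1 of C57BL/6 mice is known for a defective allele, so their values are transcript levels and say nothing of protein.

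Total counts were 14129350 to 30439358 per library. Muscle fibre genes of the marker list (Acta1, Ckm, Tnnt3, Mylpf, Myh4 and Myh1) summed to 9889 to 61829.9 CPM in old vehicle muscle 7 days after injury, against 169137 to 174403 CPM in old uninjured muscle, so the defining genes of the labelled tissue were abundant. Whether libraries stem from different animals is not stated, and the p-values therefore measure only the spread between these samples, which may be technical. In whole muscle, fewer cells of a type and less RNA per cell cannot be told apart. A gene was called where the adjusted p of edgeR's quasi-likelihood test was under 0.05. Levels are CPM, counts per 1e+06 counts of a TMM-scaled library, and differences are log2 fold changes. Some libraries were the highest or lowest of their 4 for most of the 46 members. Library 7 of old uninjured muscle was highest for 40, library 4 of young muscle at day 7 for 34, library 6 of old BI01 muscle at day 35 for 32 and library 4 of young uninjured muscle for 24. Library 8 of old vehicle muscle at day 35 was lowest for 32, library 3 of young uninjured muscle for 28, library 7 of old BI01 muscle at day 35 for 26, and library 7 of old vehicle and library 1 of old BI01 muscle at day 7 for 24 each.

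At day 7 nearly the whole set was higher than in uninjured muscle, in each of the 3 arms. The summed level of the 46 genes was 1061 to 1294 CPM in old BI01 muscle and 1029 to 1321 CPM in old vehicle muscle at day 7, against 249.5 to 413 CPM in old uninjured muscle. In young muscle it was 675 to 984 CPM at day 7, against 198 to 299 CPM uninjured. No day 7 library overlapped an uninjured one in this sum. In young muscle 45 of 46 members were called higher and none lower, where 33.3% of all genes tested were called higher and 27.5% lower; the median log2 fold change was 2.11 for the members and 0.17 for all genes. In old vehicle muscle 44 were called higher and none lower, beside 34.4% and 29.8% of all genes, with medians of 2.35 and 0.14. In old BI01 muscle 45 were called higher and none lower over the same old uninjured libraries, beside 33.2% and 28.3% of all genes, with medians of 2.32 and 0.13. The 2 comparisons in old mice share their uninjured libraries. All 4 libraries at day 7 lay above all 4 uninjured ones for 43 members in young muscle, where 27.2% of all genes did so, for 41 in old vehicle muscle (29.1%) and for 44 in old BI01 muscle (31.8%). The members not called were Ifi35 in young muscle, Igtp and Ifi35 in old vehicle muscle, and Igtp in old BI01 muscle. With library size alone as the scale, the median over all genes was 1.05 in young and 1.15 in old vehicle muscle and that of the members 3.01 and 3.33.

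**Figure D1:**
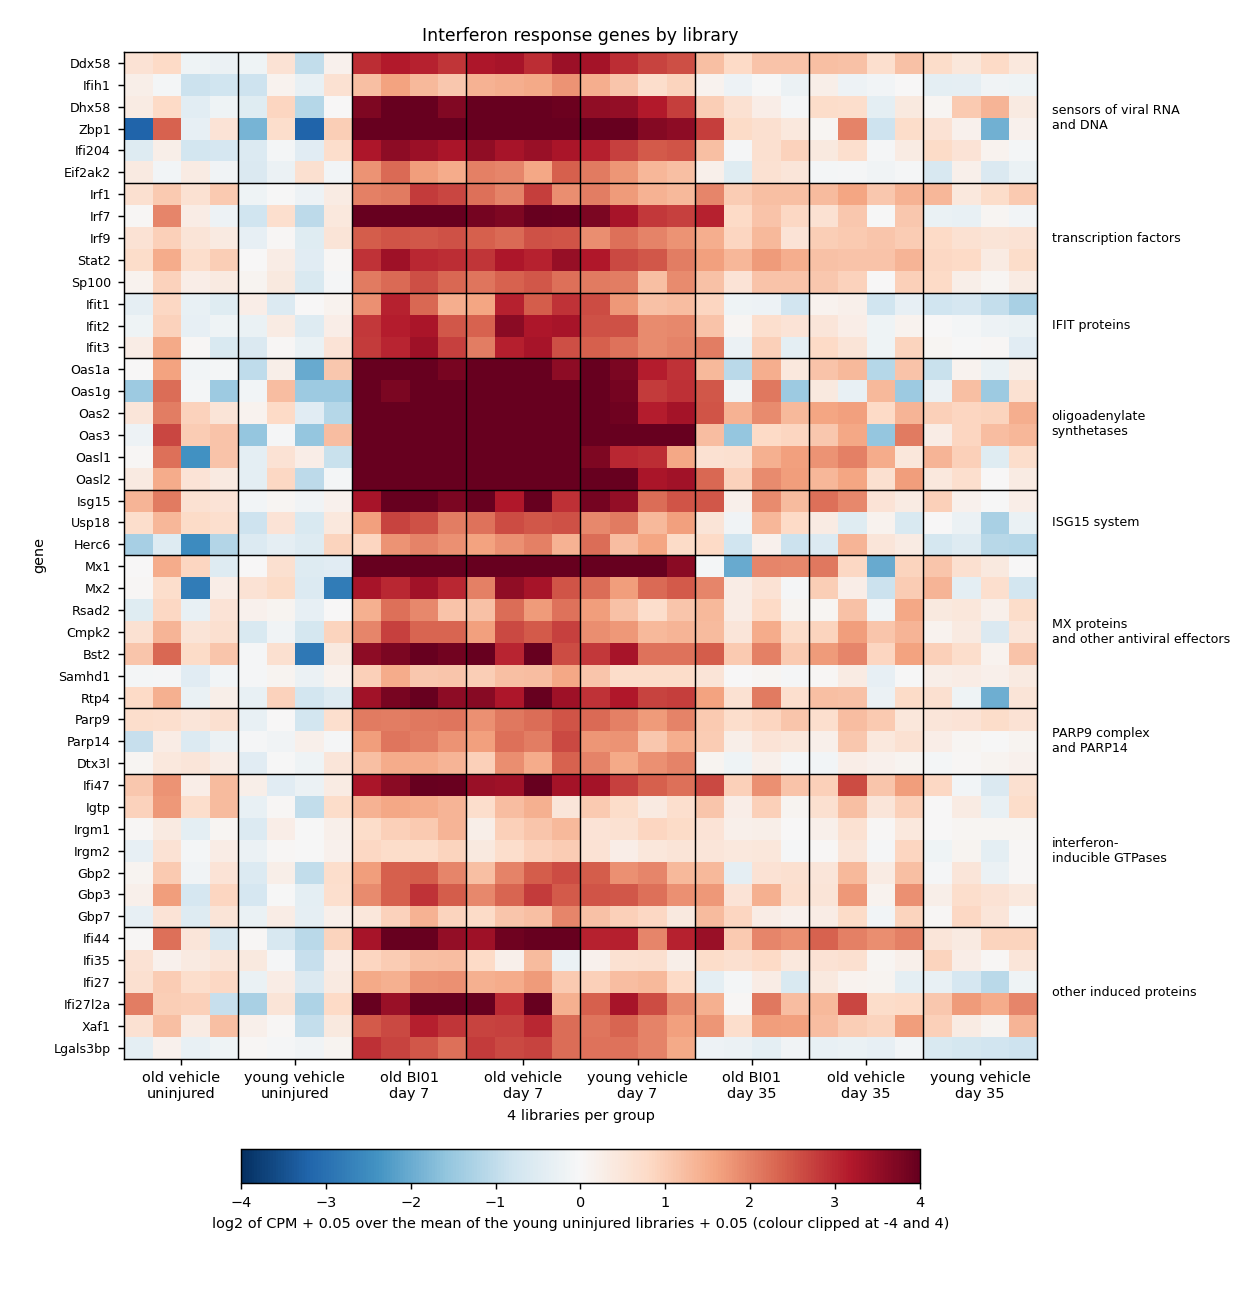
Each row is a gene and each column a library, 4 per group, and the colour is the log2 ratio of the CPM to the mean of young uninjured muscle, with 0.05 CPM added to both. The day 7 blocks are red for nearly all of the 46 genes and deepest for the oligoadenylate synthetases, Mx1 and Zbp1, and in old uninjured muscle the column of library 7 stands out.

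The sensors of viral RNA and DNA were 7.09 times as high in sum at day 7 as in uninjured muscle of old vehicle mice, by the ratio of mean summed CPM, and 4.75 times in young mice. All 6 were called in each arm. Ddx58, which encodes RIG-I, a sensor of viral RNA, had 32.4, 24.8, 20.7 and 19.1 CPM in young vehicle muscle at day 7, against 2.78, 4.72, 1.56 and 3.57 CPM in young uninjured muscle (log2 fold change 2.94, SE 0.25, adjusted p = 3.54e-11). The groups did not overlap. Ifi204, a DNA-binding protein of the family of human IFI16, had 31.5, 39.8, 35.7 and 31.99 CPM in old BI01 muscle at day 7 and 38.5, 32.5, 36.6 and 32.1 CPM in old vehicle muscle at day 7, against 2.29, 3.82, 1.92 and 2.03 CPM in old uninjured muscle. Over the old uninjured libraries its log2 fold change was 3.76 with BI01 (SE 0.27, adjusted p = 2.63e-12) and 3.77 with vehicle (SE 0.27, adjusted p = 1.68e-12). All 8 of these day 7 libraries were at least 31.5 CPM, and the highest uninjured library had 3.82 CPM. Zbp1, a sensor of unusual nucleic acid forms that can start cell death, averaged 16.6 ± 5.42 CPM in old vehicle muscle at day 7 and 0.816 ± 1.03 CPM in old uninjured muscle. Dhx58 (LGP2), a relative of RIG-I, averaged 12.2 ± 1.002 CPM in old vehicle muscle at day 7 and 0.775 ± 0.317 CPM in old uninjured muscle. These were the largest relative changes among the sensors. Ifih1 (MDA5), another RNA sensor, averaged 18.4 ± 2.46 CPM in old vehicle muscle at day 7 and 5.06 ± 1.88 CPM in old uninjured muscle. Eif2ak2 (PKR), a kinase that stops translation on sensing viral RNA, averaged 21.2 ± 4.91 CPM in old vehicle muscle at day 7 and 5.75 ± 1.07 CPM in old uninjured muscle.

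The transcription factors were all called in each arm, and their sum was 4.47 times the uninjured one in old vehicle muscle and 4.78 times in young muscle. Stat2, the subunit of the ISRE-binding complex that activates transcription, had 38.8, 26.2, 23.8 and 17.4 CPM in young vehicle muscle at day 7, against 4.25, 5.16, 3.03 and 4.34 CPM in young uninjured muscle (log2 fold change 2.66, SE 0.22, adjusted p = 2.40e-11). In old mice it had 30.9, 40.04, 36.2 and 47.2 CPM in old vehicle muscle at day 7, against 7.02, 11.9, 6.80 and 8.27 CPM in old uninjured muscle (log2 fold change 2.17, SE 0.21, adjusted p = 2.79e-10). Day 7 and uninjured libraries did not overlap at either age. Irf9, its DNA-binding partner, had 22.96, 24.8, 24.2 and 24.997 CPM in old BI01 muscle at day 7, against 6.33, 8.28, 6.08 and 5.52 CPM in old uninjured muscle (log2 fold change 1.88, SE 0.18, adjusted p = 5.14e-10), and its 4 BI01 libraries at day 7 lay close together. Irf7, the factor that amplifies interferon production, averaged 52.01 ± 3.72 CPM in old BI01 muscle at day 7, 48.98 ± 19.3 CPM in old vehicle muscle at day 7 and 4.77 ± 3.88 CPM in old uninjured muscle. Irf1, which answers gamma interferon above all, averaged 21.7 ± 5.91 CPM in old BI01 muscle at day 7, 19.1 ± 5.70 CPM in old vehicle muscle at day 7 and 7.21 ± 1.21 CPM in old uninjured muscle. Sp100, a protein of nuclear bodies, averaged 38.9 ± 4.36 CPM in old vehicle muscle at day 7 and 10.7 ± 2.82 CPM in old uninjured muscle. Irf7 was the factor with the largest change, with a log2 fold change of 3.25 in young and 3.32 in old vehicle muscle; without old uninjured library 7, which had 10.6 CPM, the value in old muscle was 4.11.

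The oligoadenylate synthetases, a family known for a messenger that activates an RNA-degrading enzyme, were the role with the largest relative change. Their sum was 93.9 to 117 CPM in old vehicle muscle at day 7, against 4.88 to 14.4 CPM in old uninjured muscle, a ratio of means of 14.6. In young muscle it was 42.4 to 85.3 CPM at day 7 and 2.02 to 6.76 CPM uninjured, a ratio of 15.6. All 6 were called higher in every arm. Oasl2, a relative that carries ubiquitin-like domains, had 40.3, 67.6, 49.97 and 34.5 CPM in old BI01 muscle at day 7 and 39.5, 54.3, 48.3 and 65.1 CPM in old vehicle muscle at day 7, against 2.75, 6.05, 3.12 and 2.76 CPM in old uninjured muscle. Its log2 fold change was 3.69 with BI01 (SE 0.34, adjusted p = 3.12e-10) and 3.79 with vehicle (SE 0.35, adjusted p = 1.60e-10). In young mice Oasl2 had 41.8, 41.8, 20.6 and 22.2 CPM in young vehicle muscle at day 7, against 1.62, 3.83, 1.01 and 2.03 CPM in young uninjured muscle (log2 fold change 3.90, SE 0.37, adjusted p = 3.60e-10). Libraries 4 and 5 of young muscle at day 7 lay well above libraries 6 and 7, and all 4 exceeded every uninjured library. Oas2 averaged 23.01 ± 2.44 CPM in old vehicle muscle at day 7 and 2.08 ± 1.26 CPM in old uninjured muscle, and Oas1a 11.3 ± 3.26 CPM in old vehicle muscle at day 7 and 0.806 ± 0.605 CPM in old uninjured muscle. Oas3 averaged 12.8 ± 3.84 CPM in old vehicle muscle at day 7 and 0.366 ± 0.351 CPM in old uninjured muscle. It was nearly undetected in uninjured muscle: in young uninjured muscle Oas3 and Oas1g each had 4 counts over the 4 libraries, so their fitted log2 fold changes of 6.30 and 4.24 at day 7 are imprecise (SE 0.67 and 1.00). Without young uninjured library 4 the value of Oas3 was 7.73, and without library 2 that of Oas1g was 5.65. Oasl1, which restrains the translation of Irf7, averaged 7.61 ± 1.49 CPM in old vehicle muscle at day 7 and 0.491 ± 0.519 CPM in old uninjured muscle.

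The IFIT proteins, which bind viral RNA and block its translation, were called in all arms, and their sum was 6.32 times the uninjured one in old vehicle muscle and 4.25 times in young muscle. Ifit2 had 23.7, 29.7, 32.7 and 18.7 CPM in old BI01 muscle at day 7 and 17.2, 40.9, 31.6 and 33.2 CPM in old vehicle muscle at day 7, against 2.97, 6.33, 2.64 and 2.94 CPM in old uninjured muscle. The log2 fold changes were 2.79 with BI01 (SE 0.29, adjusted p = 1.25e-09) and 3.02 with vehicle (SE 0.29, adjusted p = 2.65e-10). Library 7 of old vehicle muscle at day 7 held the lowest Ifit2 level of its group, and it was also the lowest of its group for 24 of the 46 members. In young mice Ifit2 had 19.8, 19.5, 12.4 and 12.7 CPM in young vehicle muscle at day 7, against 2.78, 4.18, 2.30 and 4.05 CPM in young uninjured muscle (log2 fold change 2.28, SE 0.29, adjusted p = 7.61e-08). Ifit1 averaged 21.8 ± 8.70 CPM in old vehicle muscle at day 7 and 3.63 ± 1.83 CPM in old uninjured muscle, and Ifit3 21.7 ± 7.83 CPM in old vehicle muscle at day 7 and 4.38 ± 2.99 CPM in old uninjured muscle. Of the ISG15 system, Isg15 itself is a ubiquitin-like protein that is attached to other proteins. Isg15 had 7.94, 6.36, 2.56 and 3.18 CPM in young vehicle muscle at day 7, against 0.464, 0.534, 0.460 and 0.579 CPM in young uninjured muscle (log2 fold change 3.29, SE 0.55, adjusted p = 5.75e-06). Herc6, the mouse ligase that attaches ISG15, had 2.96, 5.68, 6.55 and 5.87 CPM in old BI01 muscle at day 7 and 5.03, 5.85, 6.67 and 4.33 CPM in old vehicle muscle at day 7, against 0.610, 1.11, 0.240 and 0.678 CPM in old uninjured muscle (log2 fold changes 2.92 and 2.97, SE 0.46 each, adjusted p = 2.02e-06 and 1.39e-06). Usp18, which removes ISG15 and blocks the receptor's signal, averaged 6.58 ± 0.853 CPM in old vehicle muscle at day 7 and 2.19 ± 0.536 CPM in old uninjured muscle.

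Among the other antiviral effectors the relative changes ranged widely. Mx1, a GTPase that blocks viral replication in mice with an intact allele, had 6.86, 15.1, 13.5 and 10.01 CPM in old BI01 muscle at day 7, against 0.153, 0.518, 0.320 and 0.0904 CPM in old uninjured muscle (log2 fold change 5.31, SE 0.61, adjusted p = 1.01e-08). In young mice it had 9.44, 5.72, 3.19 and 2.45 CPM in young vehicle muscle at day 7, against 0.155, 0.267, 0.0920 and 0.0965 CPM in young uninjured muscle (log2 fold change 5.03, SE 0.70, adjusted p = 2.91e-07). The uninjured levels rested on few counts, 7 over the 4 young libraries. Samhd1, an enzyme that breaks down nucleotides, was at the other end: it had 77.8, 90.2, 91.8 and 115 CPM in old vehicle muscle at day 7, against 36.5, 37.98, 28.2 and 35.8 CPM in old uninjured muscle (log2 fold change 1.43, SE 0.15, adjusted p = 2.58e-09). Samhd1 was high in every group, and its day 7 libraries still lay above all uninjured ones. Bst2 (tetherin), which holds virus particles at the cell surface, averaged 38.2 ± 19.8 CPM in old vehicle muscle at day 7 and 8.16 ± 4.46 CPM in old uninjured muscle. Rsad2 (viperin) averaged 17.8 ± 5.62 CPM in old vehicle muscle at day 7 and 5.71 ± 2.48 CPM in old uninjured muscle. Its chromosomal neighbour Cmpk2, a mitochondrial nucleotide kinase, averaged 12.5 ± 3.68 CPM in old vehicle muscle at day 7 and 4.09 ± 1.26 CPM in old uninjured muscle. Rtp4 averaged 15.7 ± 3.83 CPM in old vehicle muscle at day 7 and 2.04 ± 1.04 CPM in old uninjured muscle, and Mx2 2.64 ± 1.20 CPM in old vehicle muscle at day 7 and 0.296 ± 0.217 CPM in old uninjured muscle. All 7 of these effectors were called higher in every arm.

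The PARP9 complex pairs Parp9 with the ubiquitin ligase of Dtx3l, and Parp14 is a related enzyme that adds ADP-ribose. Parp9 had 28.9, 24.3, 19.5 and 23.98 CPM in young vehicle muscle at day 7, against 4.87, 6.05, 3.59 and 9.55 CPM in young uninjured muscle (log2 fold change 2.01, SE 0.21, adjusted p = 1.53e-09). Parp14 had 33.3, 46.6, 42.9 and 36.6 CPM in old BI01 muscle at day 7 and 32.9, 47.7, 42.9 and 65.6 CPM in old vehicle muscle at day 7, against 5.49, 12.9, 7.12 and 8.77 CPM in old uninjured muscle, with log2 fold changes of 2.20 and 2.44 (SE 0.23 each, adjusted p = 2.16e-09 and 2.78e-10). Dtx3l averaged 41.6 ± 16.8 CPM in old vehicle muscle at day 7 and 15.4 ± 1.81 CPM in old uninjured muscle. The interferon-inducible GTPases, which attack membranes around bacteria and parasites, changed least of the roles: their sum was 111 to 190.5 CPM in old vehicle muscle at day 7, against 59.1 to 116 CPM in old uninjured muscle, and the groups overlapped. The ratio of means was 1.93 in old vehicle and 2.03 in young muscle, and 6 of 7 and 7 of 7 were called. Ifi47 changed most among them, with 9.93, 12.7, 19.7 and 16.1 CPM in old BI01 muscle at day 7 and 11.3, 10.8, 18.3 and 10.4 CPM in old vehicle muscle at day 7, against 2.14, 3.54, 1.20 and 2.44 CPM in old uninjured muscle (log2 fold changes 2.61 and 2.41, SE 0.39 each, adjusted p = 9.82e-07 and 2.92e-06). In young mice Ifi47 had 10.3, 6.91, 5.39 and 4.77 CPM in young vehicle muscle at day 7, against 1.16, 0.712, 0.828 and 1.25 CPM in young uninjured muscle (log2 fold change 2.79, SE 0.43, adjusted p = 1.96e-06). Igtp stood at the other end. It averaged 14.5 ± 4.30 CPM in old vehicle muscle at day 7 and 16.7 ± 5.49 CPM in old uninjured muscle, with a log2 fold change of -0.21 (SE 0.28, adjusted p = 0.517). In young muscle the call of Igtp at 0.74 was lost without young uninjured library 1 or 3 or day 7 library 4 or 7 (adjusted p 0.0617 to 0.135), and that of Irgm2 at 0.46 without any of 6 libraries, uninjured 1, 2 and 3 and day 7 numbers 4, 6 and 7 (0.0505 to 0.119). Irgm2 averaged 37.6 ± 7.06 CPM in old vehicle muscle at day 7 and 24.5 ± 6.80 CPM in old uninjured muscle, and Irgm1, a regulator of the family, 32.1 ± 9.16 CPM in old vehicle muscle at day 7 and 17.1 ± 3.56 CPM in old uninjured muscle. The guanylate-binding protein Gbp2 averaged 25.4 ± 9.71 CPM in old vehicle muscle at day 7 and 7.91 ± 2.96 CPM in old uninjured muscle. Gbp3 averaged 18.6 ± 4.62 CPM in old vehicle muscle at day 7 and 5.90 ± 3.86 CPM in old uninjured muscle, and Gbp7 19.5 ± 7.29 CPM in old vehicle muscle at day 7 and 8.51 ± 3.14 CPM in old uninjured muscle.

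Lgals3bp, a secreted glycoprotein that binds galectins, had the smallest p-value of all 46 members in each arm at day 7. It had 155, 133, 114 and 94.9 CPM in old BI01 muscle at day 7 and 143, 128, 134 and 96.2 CPM in old vehicle muscle at day 7, against 15.5, 23.1, 16.6 and 18.3 CPM in old uninjured muscle. The log2 fold changes were 2.76 and 2.77 (SE 0.16 each, adjusted p = 3.30e-14 and 2.50e-14). In young mice it had 93.7, 92.1, 81.9 and 59.4 CPM in young vehicle muscle at day 7, against 21.3, 19.8, 18.8 and 22.3 CPM in young uninjured muscle (log2 fold change 1.99, SE 0.16, adjusted p = 8.14e-12). Ifi27l2a and Ifi27, small membrane proteins, averaged 19.4 ± 13.1 CPM in old vehicle muscle at day 7 and 3.46 ± 2.43 CPM in old uninjured muscle, and 36.7 ± 6.54 CPM in old vehicle muscle at day 7 and 23.8 ± 2.92 CPM in old uninjured muscle. Xaf1, which promotes cell death, averaged 12.1 ± 2.51 CPM in old vehicle muscle at day 7 and 3.41 ± 0.993 CPM in old uninjured muscle. Ifi44 averaged 7.69 ± 1.91 CPM in old vehicle muscle at day 7 and 0.900 ± 0.899 CPM in old uninjured muscle. Ifi35, which partners the protein NMI, averaged 7.60 ± 3.38 CPM in old vehicle muscle at day 7 and 6.55 ± 0.787 CPM in old uninjured muscle and was called only with BI01 (log2 fold change 0.69, SE 0.26, adjusted p = 0.0198; adjusted p = 0.0608 without old uninjured library 7); its difference between BI01 and vehicle was not called. Per kilobase of gene length, Lgals3bp at 44.0, Bst2 at 42.3 and Ifi27l2a at 42.0 CPM per kb led the set in old vehicle muscle at day 7, and Mx2 and Herc6 were lowest, at 0.731 and 0.588.

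**Figure D2:**
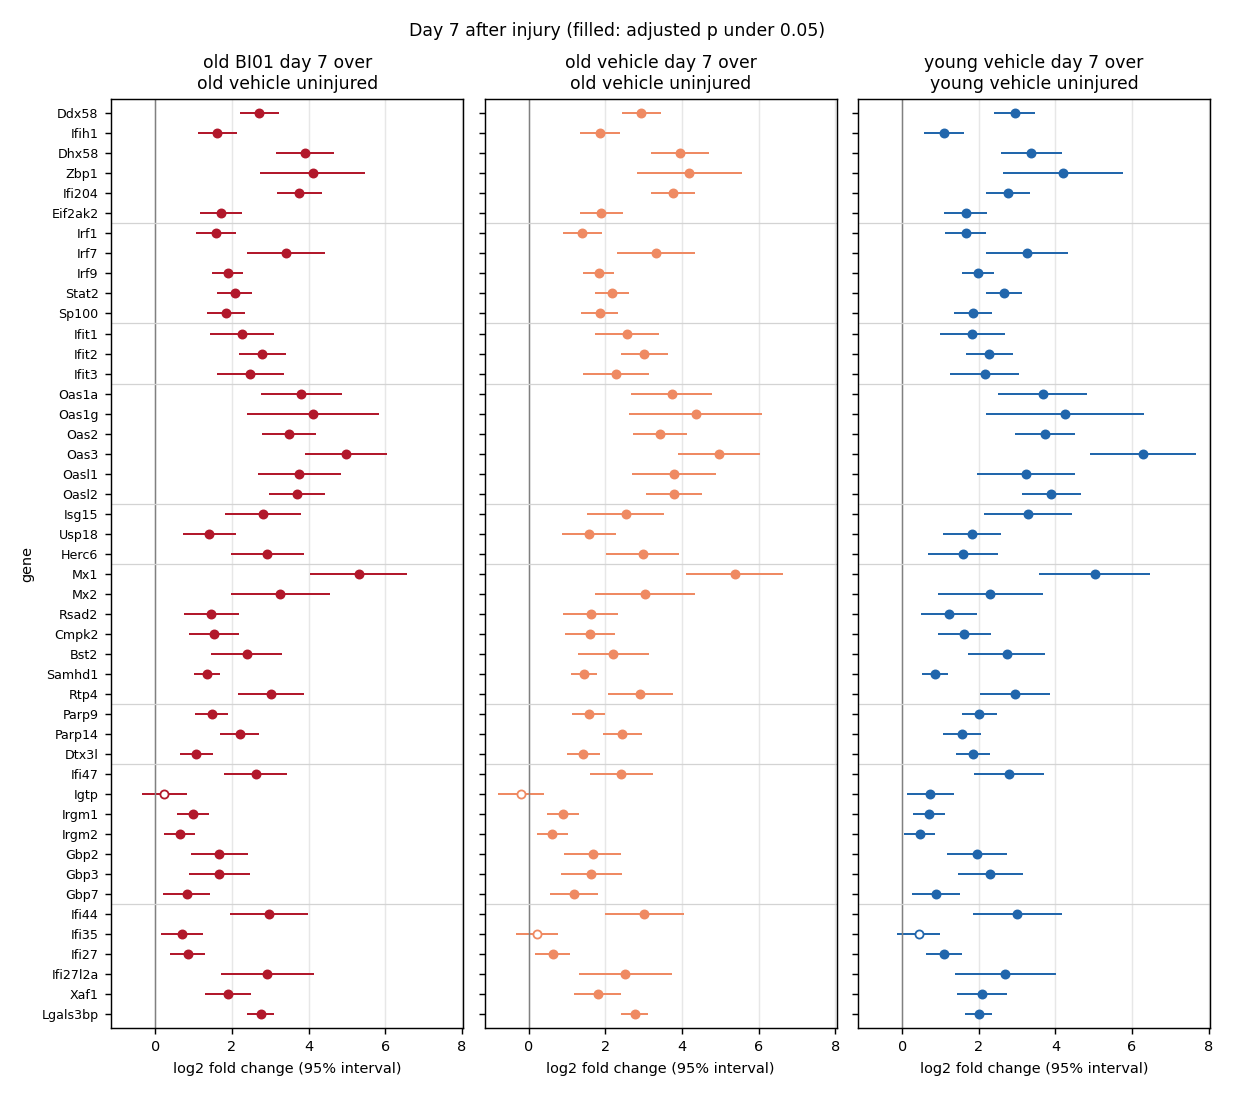
Each point is the log2 fold change of a gene at day 7 over uninjured muscle of the same age, with its 95% interval, in old BI01, old vehicle and young vehicle muscle. Filled points passed an adjusted p of 0.05; 45, 44 and 45 of the 46 are filled, and the oligoadenylate synthetases, Mx1 and Zbp1 lie farthest to the right.

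Library 7 of old uninjured muscle weighed on the size of the change in old mice for 9 members with low uninjured levels, all called with and without it. Left out, it moved their log2 fold change in old vehicle muscle by more than 1.5 times on the linear scale: Zbp1 had 5.52 without it and 4.19 with it, Irf7 had 4.11 without it and 3.32 with it, Ifit3 had 2.90 without it and 2.28 with it, Oas1a had 4.47 without it and 3.73 with it, Oas1g had 7.20 without it and 4.36 with it, Oas3 had 5.92 without it and 4.96 with it, Oasl1 had 4.68 without it and 3.79 with it, Mx1 had 6.06 without it and 5.38 with it and Ifi44 had 4.11 without it and 3.02 with it. The same 9 moved by as much in old BI01 muscle. In young muscle, leaving out uninjured library 4 gave 4.82 for Zbp1 and 4.36 for Oas1a. In old BI01 muscle the call of Gbp7 was lost without old uninjured library 6 or 8 or BI01 library 3 (adjusted p 0.0612 to 0.0773).

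The interferons themselves were hardly detected. Of 21 interferon genes listed, 14 had no count in any of the 32 libraries, which hold 574095424 counts in all, and none passed the filter. The other 7 held 34 counts in all, 21 of them from Ifng and 4 from Ifnb1. In a library, 3 counts correspond to at most 0.212 CPM before scaling, so low levels were not detectable at this depth. Of 5 receptor genes tested, 4 were called higher and 1 lower at day 7 in each arm. For this and the next lists, 33.3% of all genes were called higher and 27.5% lower in young muscle. In old vehicle muscle the shares were 34.4% and 29.8%, and in old BI01 muscle 33.2% and 28.3%. Ifnar2 had 22.6, 13.9, 17.2 and 11.6 CPM in young vehicle muscle at day 7, against 3.25, 2.76, 2.39 and 2.41 CPM in young uninjured muscle (log2 fold change 2.59, SE 0.23, adjusted p = 7.02e-11). Il10rb, shared by the lambda interferon and interleukin-10 receptors, and Ifnar1 had log2 fold changes of 2.98 and 1.40 (SE 0.30 and 0.18, adjusted p = 8.68e-10 and 8.06e-08). Ifngr2, named after its values were seen, was the receptor called lower (log2 fold change -0.59, SE 0.13, adjusted p = 3.79e-04). How this fall depends on the scale, such as library size alone, was not examined. Of 20 further signalling and sensing genes, 15 were called higher and 3 lower in young muscle. Jak2, the kinase of the gamma interferon receptor, had 23.9, 24.2, 20.7 and 29.1 CPM in young vehicle muscle at day 7, against 116, 149, 159 and 111 CPM in young uninjured muscle (log2 fold change -2.45, SE 0.16, adjusted p = 2.16e-13). The highest day 7 library lay far below the lowest uninjured one. Tmem173 (STING), the adaptor of DNA sensing, and Ikbke, a kinase of IRF3 and IRF7, had log2 fold changes of 2.81 and 3.50 (SE 0.28 and 0.36, adjusted p = 8.69e-10 and 1.27e-09). Of 13 tested restraints of the response, 5 were called higher and 3 lower, near the shares of all genes. The mean sum of the restraints was 0.987 times the uninjured one in young muscle, with overlap. In old vehicle muscle it was 1.43 times, without overlap. These ratios depend on the scale. With library size alone the mean sums in young muscle were 197 CPM at day 7 and 109 CPM uninjured. In old vehicle muscle they were 301 CPM at day 7 and 104 CPM uninjured. The phosphatase Ptpn6 (4.00, SE 0.37, adjusted p = 2.00e-10) and the RNA editor Adar (2.14, SE 0.22, adjusted p = 1.99e-09) were higher. Pias1, a SUMO ligase, was lower at -0.62 (SE 0.12, adjusted p = 4.21e-05), and 0.26 and not called with library size alone. Of 34 tested further induced genes 24 were called higher and 2 lower, among them Ifi203 (3.11, SE 0.22, adjusted p = 1.83e-12), Pml (1.77, SE 0.16, adjusted p = 1.02e-10) and Ly6e (2.59, SE 0.24, adjusted p = 1.92e-10). The counts in old vehicle muscle were 15 higher and 3 lower of 20, 6 and 2 of 13, and 24 and 0 of 34.

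Markers of several other cell types were higher at day 7, as the set was, and those of others were not. All 10 macrophage markers (Adgre1, Csf1r, Cd68, Cd14, Cx3cr1, Mrc1, Fcgr1, Itgam, C1qa and C1qb) were called higher at day 7 in each arm, and all 10 had counts in every group. Their sum was 877 to 1630.3 CPM in old BI01 muscle, 706 to 1459 CPM in old vehicle muscle and 420.4 to 804 CPM in young muscle at day 7, against 11.5 to 97.6 CPM in old and 18.6 to 78.8 CPM in young uninjured muscle. The ratio of mean sums over uninjured muscle was 23.9 in old vehicle and 15.7 in young muscle for the macrophage markers, and 3.85 and 3.30 for the 46 genes. T and NK cell markers, 11 of 12 called higher, summed to 16.6 to 51.8 CPM in old vehicle muscle at day 7, against 1.45 to 3.81 CPM uninjured. In young muscle they summed to 11.4 to 25.2 CPM at day 7 and 0.0920 to 1.06 CPM uninjured, where 7 of the 12 had no count. Markers of plasmacytoid dendritic cells, which are known for making alpha interferon, summed to 1.61 to 4.19 CPM in old vehicle muscle at day 7, against 0.588 to 1.45 CPM uninjured, with 2 of 3 tested called higher and 1 lower. In young muscle they summed to 0.198 to 1.98 CPM at day 7, against 0.460 to 0.890 CPM uninjured, with 0 of 3 called. Of the fibro-adipogenic progenitor markers (Pdgfra, Dcn, Col1a1, Col3a1, Dpp4 and Pi16), the collagens among them, 4 of 6 were called higher in each of these arms. They summed to 7615 to 12123 CPM in old vehicle muscle at day 7, against 148 to 439.7 CPM uninjured. In young muscle the sum was 6277 to 9499 CPM at day 7, against 231 to 425 CPM uninjured. The ratios of mean sums were 31.2 and 27.1, above those of the macrophage markers. Conventional dendritic cell markers, 4 of 6 called higher in old vehicle and 5 of 6 in young muscle, had ratios of 3.60 and 4.01, near those of the set. Satellite cell markers, 4 of 5 called higher in both, had ratios of 2.64 and 1.85, and none of these 3 sums overlapped its uninjured one. Neutrophil markers summed to 13.9 to 20.6 CPM in old vehicle muscle at day 7, against 1.44 to 8.32 CPM uninjured, and to 8.07 to 16.1 CPM in young muscle at day 7, against 0.482 to 1.104 CPM uninjured, with Ly6g at 0 in these 4 groups. Muscle fibre markers were lower, with 64371 to 134776 CPM in young muscle at day 7 and 191558 to 250220.0 CPM uninjured. Erythroid markers were lower too, with ratios of mean sums of 0.132 in old vehicle and 0.178 in young muscle, without overlap. Endothelial markers had ratios of 1.21 in old vehicle muscle, with overlap, and 1.45 in young muscle, without overlap. B cell markers had ratios of 2.85 and 2.97, both with overlap. The part of cell makeup in the changes of the set was not tested.

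**Figure D3:**
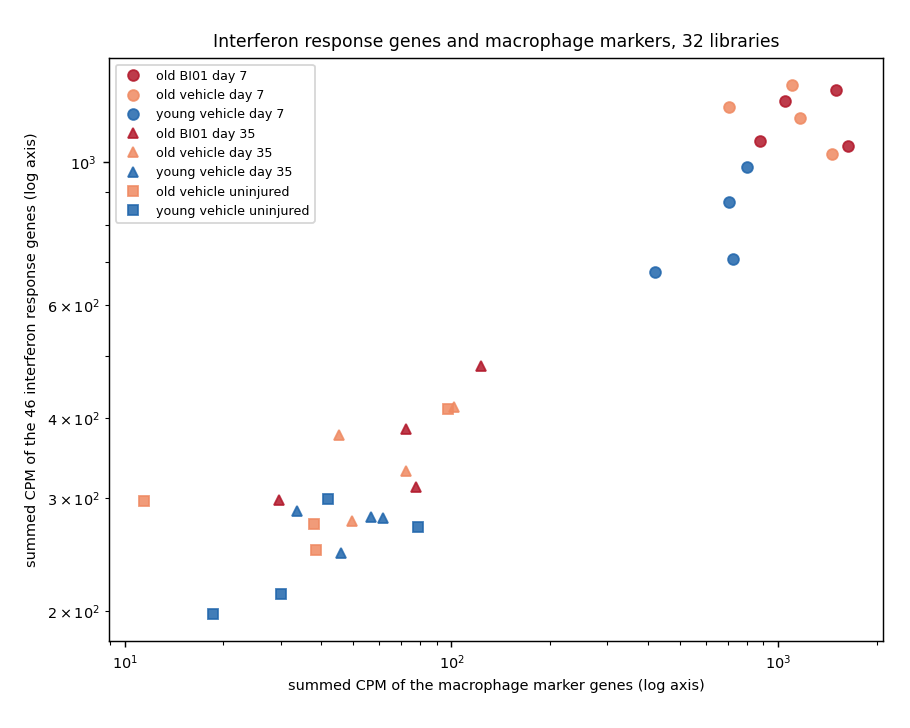
Each point is a library, with the summed CPM of 10 macrophage markers on the x axis and of the 46 interferon response genes on the y axis, both on log axes; colour gives the arm and shape the time. Day 7 libraries lie at the upper right, with the young ones below both old arms on the y axis, and the others at the lower left, with old uninjured library 7 and old BI01 day 35 library 6 highest of their groups on both axes.

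The next question was whether age altered the set. At day 7 the summed level was 1029 to 1321 CPM in old vehicle muscle and 675 to 984 CPM in young muscle, with no overlap, a ratio of means of 1.47. The log2 fold change, old over young, was above 0 for 45 of 46 members, with a median of 0.66 beside 0.04 for all genes. Only 2 members were called, both higher, where 0.251% of all genes were called higher and 2.18% lower. All 4 old libraries lay above all 4 young ones for 12 members, beside 2.68% of all genes. Oasl1 had 6.67, 6.61, 9.78 and 7.38 CPM in old vehicle muscle at day 7, against 3.52, 2.16, 2.07 and 0.734 CPM in young vehicle muscle at day 7 (log2 fold change 1.83, SE 0.46, adjusted p = 0.0329). Lgals3bp had 143, 128, 134 and 96.2 CPM in old vehicle muscle at day 7, against 93.7, 92.1, 81.9 and 59.4 CPM in young vehicle muscle at day 7 (log2 fold change 0.61, SE 0.15, adjusted p = 0.0277). Neither overlapped between ages. Both calls were lost on leaving out any of 4 libraries, young 6 and 7 and old 7 and 8 (adjusted p 0.0504 to 0.201 for Oasl1 and 0.0573 to 0.210 for Lgals3bp), and with only these 8 libraries in the fit (0.309 and 0.372). The count was 13 with library size alone, where the median over all genes was 0.36, 16 with limma voom and 6 with DESeq2. By role, the sum of the oligoadenylate synthetases was 93.9 to 117 CPM in old and 42.4 to 85.3 CPM in young muscle, and that of the sensors 129 to 143 and 71.9 to 119 CPM, both without overlap. The sums of the transcription factors and of the MX proteins and other effectors did not overlap either. The PARP9 group overlapped, with 78.1 to 164 CPM in old and 84.98 to 114 CPM in young muscle. So did the sums of the IFIT proteins, the ISG15 system, the interferon-inducible GTPases and the other induced proteins. The sum of macrophage markers was 1.67 times as high in old muscle, with overlap and none of the 10 called, and the muscle fibre sum was 0.479 times the young one. Their part in the age difference was not tested.

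Without injury the set was higher in old than in young muscle for part of its members. Of 46, 9 were called higher and none lower, where 5.79% of all genes were called higher and 7.65% lower, and the median log2 fold change was 0.68 beside 0.09. The count was 3 with limma voom, 4 with only the 2 groups in the fit and 5 with no filter on low counts, and DESeq2 called 10 higher and 1 lower. The oligoadenylate synthetases had the largest ratio of mean sums, 1.91, with overlap, and the transcription factors followed with 1.65, without overlap. The sensors were lowest at 0.993, the MX proteins and other effectors had 1.09, and the remaining roles had 1.16 to 1.32, all with overlap. For the sum of all 46 members the ratio was 1.26, and for the further induced genes 0.991, both with overlap. Stat2, with the smallest p, had 7.02, 11.9, 6.80 and 8.27 CPM in old uninjured muscle, against 4.25, 5.16, 3.03 and 4.34 CPM in young uninjured muscle (log2 fold change 1.03, SE 0.22, adjusted p = 0.00205). Irf1 had 6.25, 8.28, 6.08 and 8.23 CPM in old uninjured muscle, against 3.56, 3.92, 3.49 and 5.02 CPM in young uninjured muscle (log2 fold change 0.86, SE 0.25, adjusted p = 0.0214). Irf9 had 6.33, 8.28, 6.08 and 5.52 CPM in old uninjured muscle, against 3.40, 4.45, 3.03 and 6.17 CPM in young uninjured muscle (log2 fold change 0.63, SE 0.19, adjusted p = 0.0277). Stat2 and Irf1 did not overlap between ages, and for Irf9 the highest young library exceeded the 2 lowest old ones. The GTPase Igtp had 13.6, 24.2, 11.8 and 17.5 CPM in old uninjured muscle, against 5.88, 7.39, 3.59 and 11.96 CPM in young uninjured muscle (log2 fold change 1.23, SE 0.29, adjusted p = 0.00547). Ifi27 had 21.1, 27.8, 22.2 and 24.1 CPM in old uninjured muscle, against 11.3, 16.6, 9.01 and 17.5 CPM in young uninjured muscle (log2 fold change 0.81, SE 0.22, adjusted p = 0.0117). The Ifi27 groups were apart, and those of Igtp overlapped by 1 library. Bst2 had 6.41, 14.8, 5.04 and 6.42 CPM in old uninjured muscle, against 2.86, 4.72, 0.368 and 3.96 CPM in young uninjured muscle (log2 fold change 1.47, SE 0.48, adjusted p = 0.0388). Oas2 had 1.30, 3.94, 1.76 and 1.31 CPM in old uninjured muscle, against 1.01, 1.60, 0.644 and 0.386 CPM in young uninjured muscle (log2 fold change 1.21, SE 0.39, adjusted p = 0.0339). In both, old library 7 stood far above the other old libraries. Parp9 had 9.92, 9.68, 8.48 and 9.31 CPM in old uninjured muscle, against 4.87, 6.05, 3.59 and 9.55 CPM in young uninjured muscle (log2 fold change 0.64, SE 0.21, adjusted p = 0.0368). Xaf1 had 2.82, 4.26, 2.32 and 4.25 CPM in old uninjured muscle, against 2.09, 1.87, 0.920 and 2.41 CPM in young uninjured muscle (log2 fold change 0.92, SE 0.31, adjusted p = 0.0469). For Parp9 the difference rested on 3 of the 4 young libraries, since library 4 lay within the old range.

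Most of these 9 calls depended on single libraries. Stat2 and Igtp were called whichever library was left out. Without old library 7 the calls of Irf1, Irf9, Oas2, Bst2, Parp9 and Xaf1 were lost (adjusted p 0.0692 to 0.305), and the log2 fold change was 0.65 for Oas2 and 1.01 for Bst2. Without young library 1 or 3 all but Stat2 and Igtp were lost (0.0570 to 0.210). Oas2 was also lost without young library 4 (0.0939), Irf1 without old library 9 (0.0574), and Parp9 and Xaf1 on leaving out young 2 or old 6 or 9 (0.0516 to 0.122). In old library 7, the sum of the set was 412.9 CPM, against 249.5 to 297.4 CPM in the other 3, and macrophage markers summed to 97.6 CPM, against 11.5 to 38.5 CPM. T and NK cell markers summed to 1.45 to 3.81 CPM in old and 0.0920 to 1.06 CPM in young uninjured muscle, without overlap. These levels are low: 7 of the 12 markers had no count in young uninjured muscle and 1 had none in old uninjured muscle. Neutrophil markers summed to 1.44 to 8.32 CPM in old and 0.482 to 1.104 CPM in young uninjured muscle, and conventional dendritic cell markers to 12.4 to 18.1 and 8.63 to 10.98 CPM, again without overlap. Muscle fibre markers were lower in old uninjured muscle, at 169137 to 174403 CPM, against 191558 to 250220.0 CPM in young uninjured muscle. The part of these cell types in the age difference was not tested. The difference between ages in the change at day 7 was called for 1 member, where 3.22% of all genes were called higher and 4.48% lower. Lgals3bp had log2 fold changes of 2.77 in old vehicle and 1.99 in young muscle, a difference of 0.77 (SE 0.21, adjusted p = 0.0255), lost without young uninjured library 1, old uninjured library 6 or 8 or old day 7 library 7 (0.0562 to 0.0653) and with no filter on low counts (0.0596).

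**Figure D4:**
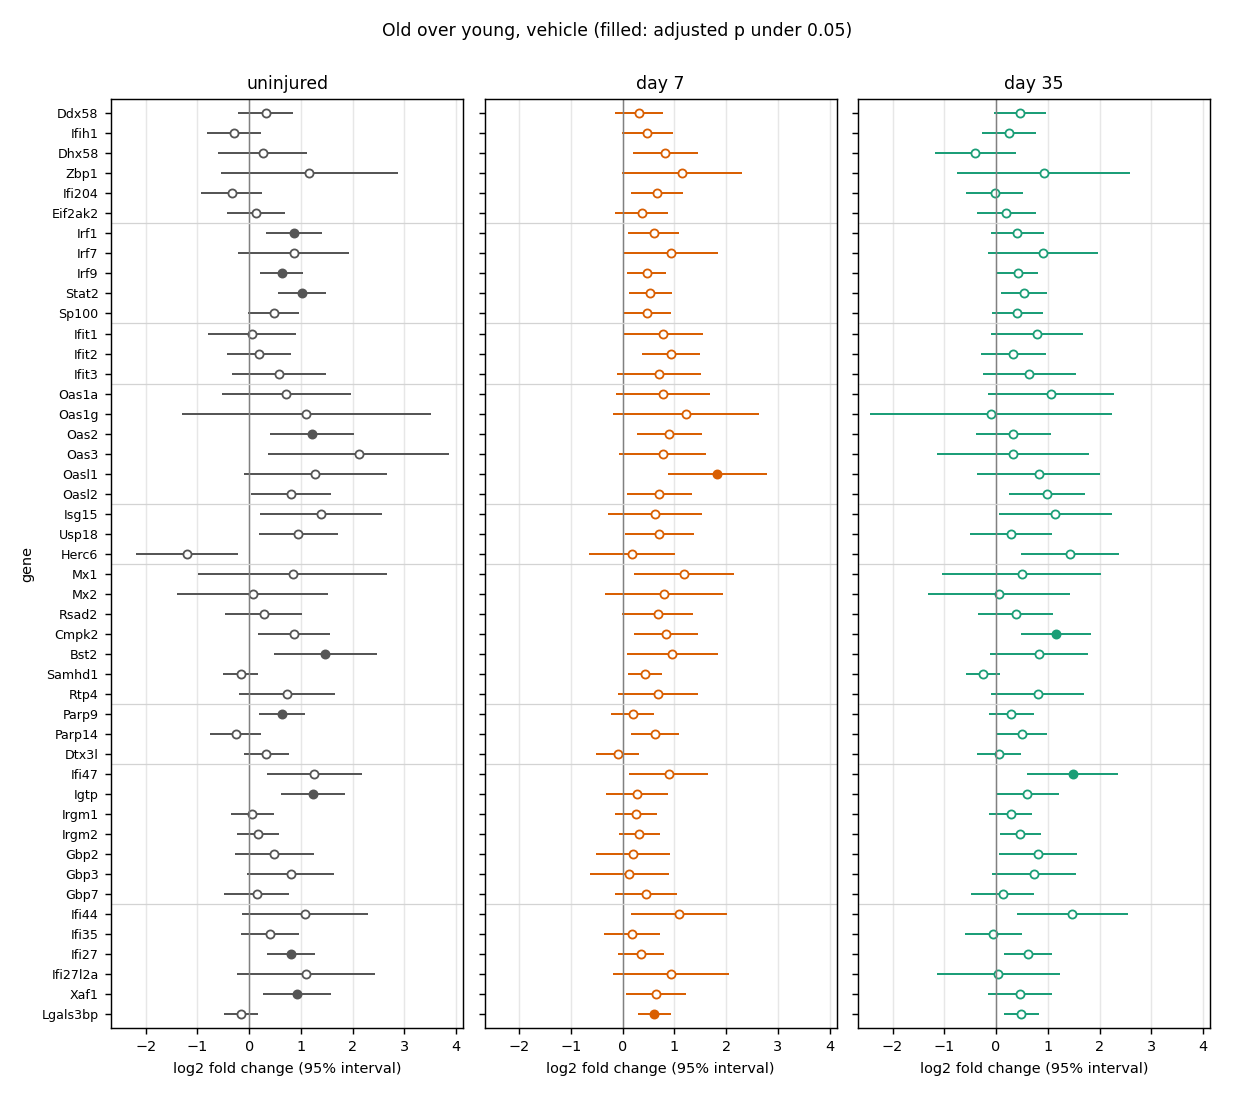
Each point is the log2 fold change of a gene, old over young muscle given vehicle, with its 95% interval, in uninjured muscle, at day 7 and at day 35. Filled points passed an adjusted p of 0.05, which 9, 2 and 2 of the 46 did; the points lie to the right of 0 for 40, 45 and 41 genes.

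BI01 was set against vehicle in old muscle at both times. At day 7, edgeR called no member and no gene at all (0%), and no member had an unadjusted p under 0.05. The sums were 1061 to 1294 CPM with BI01 and 1029 to 1321 CPM with vehicle. The members' median log2 fold change was -0.0088, with single values from -0.37 to 0.48, and 95% intervals reached from -1.61 to 1.47, with a median half-width of 0.601. Differences of that size could therefore go uncalled in a single gene, and so could larger ones after adjustment over all genes. The half-width is a median over the members and not a limit for each gene. The 3 members with the smallest p, none called, were Ifi35, Dtx3l and Igtp. Ifi35 had 9.03, 10.1, 11.5 and 11.7 CPM in old BI01 muscle at day 7, against 8.58, 5.70, 11.9 and 4.23 CPM in old vehicle muscle at day 7 (log2 fold change 0.48, SE 0.25, adjusted p = 0.741). Dtx3l had 28.3, 34.6, 34.3 and 31.9 CPM in old BI01 muscle at day 7, against 23.9, 44.8, 34.3 and 63.3 CPM in old vehicle muscle at day 7 (-0.36, SE 0.19, adjusted p = 0.741). Igtp had 19.1, 21.1, 20.2 and 18.6 CPM in old BI01 muscle at day 7, against 11.7, 16.99, 19.2 and 10.1 CPM in old vehicle muscle at day 7 (0.45, SE 0.28, adjusted p = 0.756). In all 3 the BI01 libraries lay closer together than the vehicle libraries and overlapped them. Limma voom called no gene, and DESeq2 called 1 gene, not a member.

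At day 35, edgeR again called no member and no gene (0%) for BI01 against vehicle, and 2 members had an unadjusted p under 0.05. Limma voom called none, and none of the 12 genes that DESeq2 called was a member. The sums were 298 to 482 CPM with BI01 and 276 to 416 CPM with vehicle, and the median log2 fold change was 0.10. Usp18 had 1.65, 1.05, 2.95 and 2.01 CPM in old BI01 muscle at day 35, against 1.46, 0.798, 1.27 and 0.729 CPM in old vehicle muscle at day 35 (log2 fold change 0.84, SE 0.36, adjusted p = 1). Irf7 had 23.3, 4.70, 6.10 and 4.88 CPM in old BI01 muscle at day 35, against 4.13, 5.77, 2.67 and 5.83 CPM in old vehicle muscle at day 35 (1.08, SE 0.47, adjusted p = 1). Stat2 had 13.2, 10.5, 13.9 and 11.6 CPM in old BI01 muscle at day 35, against 9.59, 9.33, 9.36 and 10.9 CPM in old vehicle muscle at day 35 (0.33, SE 0.21, adjusted p = 1). The Irf7 value rested on library 6, at 23.3 CPM, since the other 3 BI01 libraries lay within or next to the vehicle range. In library 6 macrophage markers summed to 123.4 CPM, against 29.6 to 77.6 CPM in the other BI01 libraries. The difference between day 35 and day 7 in the BI01 effect was not called for any member (0% of all genes): 1 had an unadjusted p under 0.05, and limma voom and DESeq2 called none of them. The smallest p-values belonged to Usp18 (1.01, SE 0.48, adjusted p = 0.921), Ifit2 (0.69, SE 0.39, adjusted p = 0.921) and Igtp (-0.63, SE 0.40, adjusted p = 0.921).

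**Figure D5:**
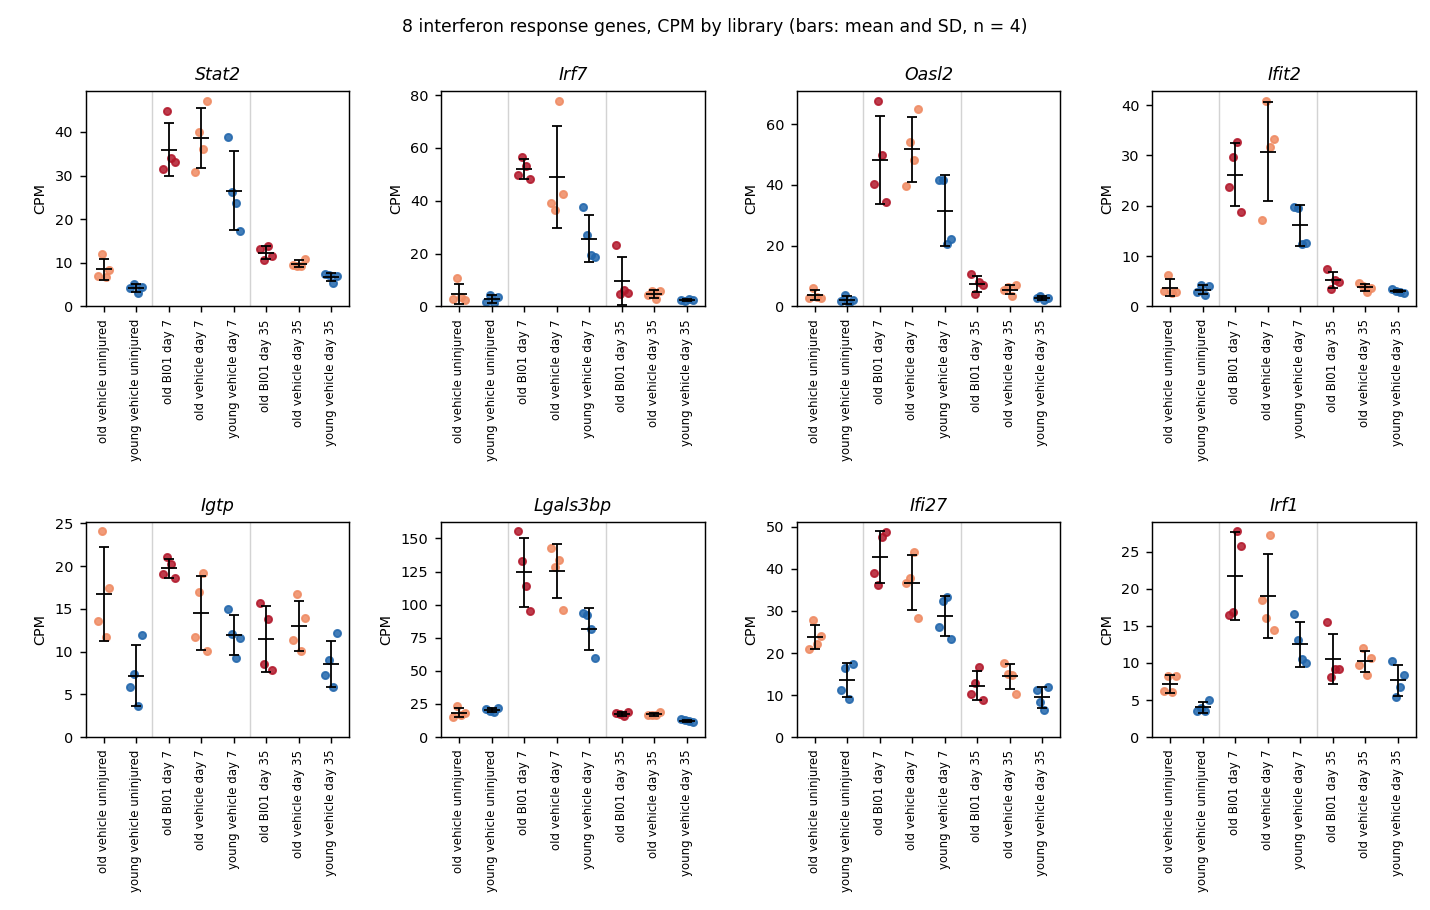
CPM of 8 members in every library, with mean and SD of 4 libraries as bars; at each time the groups stand in the order old BI01, old vehicle and young vehicle, and the times run from uninjured to day 35. Stat2, Oasl2, Ifit2 and Lgals3bp peak at day 7 in all arms, the 3 old vehicle groups of Igtp overlap, and for Irf7 library 7 of old uninjured and library 6 of old BI01 muscle at day 35 lie above the rest of their groups.

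By day 35 the set was far below its day 7 level. In young muscle 41 of 46 members were called lower at day 35 than at day 7, where 29.3% of all genes were called lower and 26.0% higher, with a median log2 fold change of -1.96. In old vehicle muscle 43 were called lower (31.4% of all genes, with 27.5% higher), and in old BI01 muscle 44 (29.4%, with 26.2% higher). No member was called higher at day 35 than at day 7. The same 40 members were called lower in all 3 arms, and all 40 were among the 44 called higher at day 7 in all 3 arms. The members not called were Rsad2, Igtp, Gbp7, Ifi35 and Ifi27l2a in young muscle, Igtp, Irgm2 and Ifi35 in old vehicle muscle and Gbp7 and Ifi35 in old BI01 muscle. Lgals3bp had 13.4, 12.6, 11.98 and 11.6 CPM in young vehicle muscle at day 35, against 93.7, 92.1, 81.9 and 59.4 CPM in young vehicle muscle at day 7 (log2 fold change -2.72, SE 0.16, adjusted p = 9.75e-14). In old mice it had 17.98, 17.5, 15.6 and 18.6 CPM in old BI01 muscle at day 35 and 16.8, 16.9, 16.5 and 19.1 CPM in old vehicle muscle at day 35, against the day 7 levels given above, with log2 fold changes of -2.84 and -2.85 (SE 0.16 each, adjusted p = 8.85e-14 and 5.30e-14). At both ages its libraries at day 35 lay close together and far below those of day 7. The sensors fell as well: Ddx58 had 5.29, 4.36, 5.48 and 4.23 CPM in young vehicle muscle at day 35, against 32.4, 24.8, 20.7 and 19.1 CPM in young vehicle muscle at day 7 (log2 fold change -2.32, SE 0.24, adjusted p = 2.53e-09). Ifi204 had 7.62, 3.14, 5.09 and 6.24 CPM in old BI01 muscle at day 35 and 4.26, 5.22, 3.17 and 4.13 CPM in old vehicle muscle at day 35, with log2 fold changes of -2.65 and -3.05 over day 7 (SE 0.26 each, adjusted p = 1.12e-09 and 9.66e-11). These groups did not overlap day 7 either.

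The same held for the leading members of the other roles. Oas3 had 0.288, 0, 0.201 and 0.215 CPM in old BI01 muscle at day 35 and 0.254, 0.368, 0 and 0.567 CPM in old vehicle muscle at day 35, with log2 fold changes of -6.15 and -5.43 over day 7 (SE 0.58 and 0.55, adjusted p = 8.18e-10 and 1.52e-09). Oasl2 had 2.84, 3.40, 2.17 and 2.66 CPM in young vehicle muscle at day 35, against 41.8, 41.8, 20.6 and 22.2 CPM in young vehicle muscle at day 7 (log2 fold change -3.50, SE 0.35, adjusted p = 2.51e-09). In each old arm 1 library had no Oas3 count. Ifit2 had 7.41, 3.51, 5.29 and 4.88 CPM in old BI01 muscle at day 35, 4.64, 4.05, 2.95 and 3.64 CPM in old vehicle muscle at day 35 and 3.36, 3.14, 2.89 and 2.74 CPM in young vehicle muscle at day 35. Its log2 fold changes over day 7 were -2.31, -3.00 and -2.40 (SE 0.28, 0.29 and 0.29, adjusted p = 5.21e-08, 8.00e-10 and 4.50e-08). Mx1 had 0.144, 0, 0.737 and 0.717 CPM in old BI01 muscle at day 35, 0.826, 0.307, 0 and 0.324 CPM in old vehicle muscle at day 35 and 0.387, 0.266, 0.217 and 0.157 CPM in young vehicle muscle at day 35. Its log2 fold changes over day 7 were -4.79, -4.99 and -4.29 (SE 0.59, 0.60 and 0.62, adjusted p = 7.19e-08, 3.23e-08 and 8.52e-07). Without old vehicle day 35 library 6 the Mx1 value in old vehicle muscle was -5.79. Stat2 had 9.59, 9.33, 9.36 and 10.9 CPM in old vehicle muscle at day 35 and 7.42, 7.28, 5.27 and 7.05 CPM in young vehicle muscle at day 35, -1.98 and -1.97 over day 7 (SE 0.21 each, adjusted p = 2.98e-09 and 5.49e-09). Irf9 had 11.9, 7.77, 10.5 and 6.31 CPM in old BI01 muscle at day 35, -1.41 over day 7 (SE 0.18, adjusted p = 1.25e-07). For both factors, each library at day 35 lay below every library at day 7 of its arm. Usp18 had 1.46, 0.798, 1.27 and 0.729 CPM in old vehicle muscle at day 35 and 1.16, 0.957, 0.433 and 0.941 CPM in young vehicle muscle at day 35, -2.62 and -2.19 over day 7 (SE 0.36 each, adjusted p = 2.47e-07 and 6.45e-06). Isg15 had 3.09, 0.597, 2.01 and 1.29 CPM in old BI01 muscle at day 35, against 5.39, 13.6, 11.02 and 7.60 CPM in old BI01 muscle at day 7 (log2 fold change -2.42, SE 0.47, adjusted p = 6.89e-05). Library 6 of day 35 held the highest Isg15 value and still lay below all BI01 libraries of day 7. Dtx3l had 13.4, 10.98, 14.3 and 11.7 CPM in old BI01 muscle at day 35, 11.5, 14.9, 13.998 and 13.2 CPM in old vehicle muscle at day 35 and 11.7, 12.8, 13.3 and 13.9 CPM in young vehicle muscle at day 35, with log2 fold changes of -1.36, -1.63 and -1.78 over day 7 (SE 0.20 each, adjusted p = 1.27e-06, 5.12e-08 and 1.88e-08). Ifi47 had 6.40, 1.94, 3.62 and 2.22 CPM in old BI01 muscle at day 35, 1.97, 6.26, 2.18 and 3.24 CPM in old vehicle muscle at day 35 and 1.81, 0.904, 0.650 and 1.57 CPM in young vehicle muscle at day 35, with -2.04, -1.89 and -2.48 over day 7 (SE 0.38, 0.38 and 0.41, adjusted p = 3.89e-05, 8.82e-05 and 7.66e-06). Library 7 of old vehicle and library 6 of old BI01 muscle held the highest Ifi47 levels of day 35. Without that BI01 library the fall over day 7 in old BI01 muscle was larger for Zbp1 (-4.55, against -3.62 with it), Irf7 (-3.31, against -2.42), Ifit3 (-2.78, against -2.09), Oas1g (-4.02, against -3.35), Mx2 (-3.02, against -2.34) and Ifi44 (-2.28, against -1.57). In old vehicle muscle, Zbp1 was -5.18 and Ifi27l2a -2.61 without day 35 library 7, and Oas1g -5.83 without library 8. Calls lost without 1 library were those of Irf1, Mx2 and Irgm2 in young muscle (young day 35 library 2, 3 or 4 or day 7 library 4), Herc6 and Gbp7 in old vehicle muscle (day 35 library 6 or 8 or day 7 library 10) and Irgm2 and Igtp in old BI01 muscle (day 35 library 7 or 9 or day 7 library 1 or 4), with adjusted p 0.0620 to 0.0688, 0.0502 to 0.0520, 0.0616, 0.0653, 0.0706 to 0.116, 0.0693 to 0.145 and 0.0720 to 0.0796 in that order.

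Few members were called at day 35 over uninjured muscle, though most values were above 0. The log2 fold change was positive for 40 of 46 members in old BI01, 34 in old vehicle and 34 in young muscle. The median was 0.39 beside 0.04 in old BI01, 0.25 beside 0.02 in old vehicle and 0.39 beside 0.13 in young muscle for the members and for all genes. The transcription factors summed to 29.2 to 40.999 CPM in young muscle at day 35, against 15.9 to 28.03 CPM uninjured, a ratio of means of 1.47 without overlap. In the same comparison the ISG15 system, IFIT proteins and other induced proteins had ratios of 0.748, 0.784 and 0.872. The remaining roles had 1.07 to 1.51 and the sum of all members 1.11. All sums but that of the transcription factors overlapped. In young muscle 4 of 46 were called higher and 1 lower, where 7.06% and 8.66% of all genes were. Irf1 had 10.2, 5.42, 6.71 and 8.39 CPM in young vehicle muscle at day 35, against 3.56, 3.92, 3.49 and 5.02 CPM in young uninjured muscle (log2 fold change 0.94, SE 0.25, adjusted p = 0.0109). Irf9 had 7.42, 6.54, 6.06 and 6.43 CPM in young vehicle muscle at day 35 (log2 fold change 0.64, SE 0.19, adjusted p = 0.0227), Stat2 had the levels given above (log2 fold change 0.69, SE 0.22, adjusted p = 0.0315), and Parp9 had 8.52, 8.82, 10.03 and 9.09 CPM in young vehicle muscle at day 35 (log2 fold change 0.60, SE 0.21, adjusted p = 0.0459). Irf1 and Stat2 lay above all uninjured libraries, and Irf9 and Parp9 overlapped them. Lgals3bp was lower than in uninjured muscle, at 11.6 to 13.4 CPM at day 35, against 18.8 to 22.3 CPM in young uninjured muscle (log2 fold change -0.73, SE 0.16, adjusted p = 0.00181). This call was kept whichever library was left out. With library size alone the fall was smaller and not called. The call of Irf1 was lost without day 35 library 1 (adjusted p = 0.0590), that of Irf9 without uninjured library 1 or 3 or day 35 library 1 (0.0731 to 0.121), that of Stat2 without uninjured library 1 or 3 or day 35 library 1, 2 or 4 (0.0685 to 0.143), and that of Parp9 without any library but uninjured 4 (0.0640 to 0.218).

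In old vehicle muscle 2 members were called higher and 1 lower at day 35, where 3.17% and 2.47% of all genes were. Herc6 had 1.08, 4.18, 2.25 and 2.02 CPM in old vehicle muscle at day 35, against 0.610, 1.11, 0.240 and 0.678 CPM in old uninjured muscle (log2 fold change 1.78, SE 0.46, adjusted p = 0.0161). Parp14 had 12.004, 21.9, 14.1 and 15.95 CPM in old vehicle muscle at day 35, against 5.49, 12.9, 7.12 and 8.77 CPM in old uninjured muscle (log2 fold change 0.88, SE 0.23, adjusted p = 0.0172). Ifi27 had 17.7, 15.05, 14.7 and 10.4 CPM in old vehicle muscle at day 35, against 21.1, 27.8, 22.2 and 24.1 CPM in old uninjured muscle (log2 fold change -0.72, SE 0.21, adjusted p = 0.042). Ifi27 did not overlap, and Herc6 and Parp14 overlapped by the highest uninjured or the lowest day 35 library. The call of Herc6 was lost without uninjured library 8 or day 35 library 7 (adjusted p 0.0732 to 0.122), that of Parp14 without uninjured library 6 or 8 or day 35 library 7 (0.0738 to 0.115), and that of Ifi27 without any uninjured library or day 35 library 7, 8 or 9 (0.0526 to 0.165). The Ifi27 call was also lost with library size alone (adjusted p = 0.142) and with the replicate number as a block (adjusted p = 0.0536), where 3 members were called higher and none lower. In old BI01 muscle 3 were called higher and 1 lower over the same uninjured libraries, where 4.53% and 3.56% of all genes were. Ifi204 had 7.62, 3.14, 5.09 and 6.24 CPM in old BI01 muscle at day 35, against 2.29, 3.82, 1.92 and 2.03 CPM in old uninjured muscle (log2 fold change 1.11, SE 0.27, adjusted p = 0.008). Parp14 had 21.1, 12.2, 15.3 and 14.3 CPM in old BI01 muscle at day 35 (log2 fold change 0.86, SE 0.23, adjusted p = 0.0164). Ddx58 had 7.26, 5.53, 7.03 and 6.96 CPM in old BI01 muscle at day 35, against 4.73, 5.49, 2.80 and 2.67 CPM in old uninjured muscle (log2 fold change 0.76, SE 0.24, adjusted p = 0.0415). Ifi27 had 10.4, 12.8, 16.7 and 8.90 CPM in old BI01 muscle at day 35 (log2 fold change -0.96, SE 0.22, adjusted p = 0.00467), below all uninjured libraries, and this call was kept whichever library was left out. Without BI01 library 6 the other 3 calls were lost (0.0548 to 0.109). Ddx58 was also lost without uninjured library 8 or 9 or BI01 library 8 or 9 (0.0931 to 0.176), and Parp14 without uninjured library 6 or 8 (0.0674 to 0.0773). No member was called for a difference between ages in the change at day 35 (0% of all genes); 3 had an unadjusted p under 0.05, Herc6 (2.62, SE 0.66, adjusted p = 0.308), Lgals3bp (0.64, SE 0.22, adjusted p = 0.351) and Parp14 (0.77, SE 0.33, adjusted p = 0.45), and limma voom and DESeq2 called none of them.

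Between ages at day 35, 2 members were called higher in old muscle, where 1.72% of all genes were, and none lower, where 1.79% were. Cmpk2 had 4.32, 7.43, 4.99 and 5.99 CPM in old vehicle muscle at day 35, against 2.52, 2.92, 1.52 and 3.21 CPM in young vehicle muscle at day 35 (log2 fold change 1.16, SE 0.32, adjusted p = 0.0348). Ifi47 had 1.97, 6.26, 2.18 and 3.24 CPM in old vehicle muscle at day 35, against 1.81, 0.904, 0.650 and 1.57 CPM in young vehicle muscle at day 35 (log2 fold change 1.48, SE 0.42, adjusted p = 0.0403). Both were above all young libraries. The median log2 fold change was 0.47, and 36 of the 46 members had a positive value for age uninjured, at day 7 and at day 35. Single libraries were the highest or lowest of their group for most members, so the 46 signs are not separate observations. The share of all genes with this pattern of signs was not counted. Cmpk2 lost its call on leaving out young 1, 2 or 3 or old 7, 8 or 9 (adjusted p 0.0570 to 0.135), and Ifi47 on leaving out young 2, 3 or 4 or old 7 or 9 (0.0587 to 0.270). Without old library 7 the Ifi47 value was 0.99. The summed level was 298 to 482 CPM in old BI01, 276 to 416 CPM in old vehicle and 246 to 286 CPM in young muscle at day 35, and 249.5 to 413 CPM and 198 to 299 CPM in old and young uninjured muscle, so every old BI01 library at day 35 lay above every young one at day 35, and the other 9 pairs of these groups overlapped. Macrophage markers summed to 29.6 to 123, 45.4 to 102 and 33.6 to 61.7 CPM in the 3 groups of day 35. Neutrophil markers summed to 2.11 to 3.89 CPM in old vehicle and 0.505 to 0.904 CPM in young muscle at day 35, and conventional dendritic cell markers to 12.7 to 14.1 and 7.23 to 10.1 CPM, both without overlap between ages. The sums of T and NK cell, B cell and plasmacytoid dendritic cell markers overlapped between old vehicle and young muscle at day 35. The part of these cells in the age difference was not tested.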

How the data were processed

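RNA from tibialis anterior was sequenced in 32 libraries. Per the submitters' processing notes, reads were aligned with HISAT2 to mm10; the authors deposited whole-gene counts, and the counting tool is not given in the sources used here. Columns were matched to samples by the library names in the labels; 0 columns of other samples were found. Total counts ranged from 14129350 to 30439358 per library, and each value carries the counting error of that depth.

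From these counts, CPM on TMM-scaled library sizes and edgeR 4.0.16 quasi-likelihood tests (R 4.3.3, robust fit, filterByExpr, 1 mean per group over all 32 libraries) were computed, with Benjamini-Hochberg adjustment over the 17121 genes tested and a threshold of 0.05. Intervals are 95% intervals. Groups were set against each other in 14 comparisons, and 3 further tests asked whether changes differed. Alternatives were library size alone, a filter of 1 CPM in 4 libraries, no filter beyond 1 count, limma voom (3.58.1), DESeq2 (1.42.0), only the 2 groups compared, a replicate block and leaving out each library. Scripts were tested on simulated data. No pair of libraries agreed within sampling noise (chi-square per degree of freedom 12.6 to 271).

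The 46 members and all lists were chosen with earlier results of these data known. Genes were named by a fixed rule: all members by role with their levels, and values per library for the member with the smallest p of each role where over 9 were called, for all called where 1 to 9 were, and for the 3 with the smallest p where none was. Of the other pathway lists, the 3 genes with the smallest p at day 7 in young muscle were named. Promoters came from RefSeq, build GRCm38.p6.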

Additional observations from a re-analysis of the deposited data

Results flagged for a closer look

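Within groups of 4 libraries, a library was singled out where its gap to the nearest other, divided by the range of the group, passed Dixon's 95% critical value; chance gives this in about 1 in 20 groups. Of 296 sets of 4 values tested, 22 did so. Library 7 of old uninjured muscle stood above the others in the sums of the transcription factors (54.0 CPM, others 31.0 to 34.4), IFIT proteins (21.4 CPM, others 7.41 to 9.46) and oligoadenylate synthetases (14.4 CPM, others 4.88 to 5.68). It also did so for Irf7 (10.6 CPM), Bst2 (14.8 CPM), Cmpk2 (5.97 CPM), Ifit2 (6.33 CPM), Oasl2 (6.05 CPM) and Usp18 (2.99 CPM). Library 6 of old BI01 muscle at day 35 was high for Irf7 (23.3 CPM, others 4.70 to 6.10), Irf1 (15.5 CPM, others 8.14 to 9.18) and Samhd1 (55.2 CPM, others 38.0 to 40.8).

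In old vehicle muscle at day 7, library 9 was high for Irf7 (77.7 CPM, others 36.5 to 42.6) and Ifi47 (18.3 CPM, others 10.4 to 11.3), library 10 was high in the sum of the sensors (142.8 CPM, others 129.5 to 131.5), and library 7 was low in the sum of the oligoadenylate synthetases (93.9 CPM, others 115.3 to 117.1). At day 35 in old vehicle muscle, library 8 was low for Ddx58 (5.06 CPM, others 7.12 to 7.37) and library 9 high for Stat2 (10.9 CPM, others 9.33 to 9.59). In young muscle, library 3 at day 35 was low in the sum of all members (246.0 CPM, others 279.6 to 286.5) and library 4 high for Oas2 (2.59 CPM, others 1.70 to 1.81). Library 4 of young muscle at day 7 was high for Samhd1 (83.9 CPM, others 64.6 to 65.4), and library 4 of young uninjured muscle was high for Herc6 (2.99 CPM, others 1.08 to 1.25).

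The change of Lgals3bp at day 7 differed between ages by the interaction term of edgeR, 0.77 on the log2 scale (old minus young, SE 0.21, adjusted p = 0.0255). The call was lost in 5 of 21 alternatives, with adjusted p up to 0.0653.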

How the results depend on the processing

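Of 265 alternative values of the counts of members called, 211 were within 1.5 times the value reported and 54 were not; the cause was not tested. For age in uninjured muscle (9 reported) the count was 5 with no filter, 3 with limma voom and 4 with only the 2 groups compared. For day 35 in young muscle (5) it was 9 with library size alone, 3 with no filter, 1 with limma voom and 8 with DESeq2, and in old vehicle muscle (3) it was 1 with limma voom and 5 with DESeq2. For age at day 7 (2) it was 13 with library size alone, 16 with limma voom, 6 with DESeq2 and 0 with only the 2 groups. For age at day 35 (2) it was 1 with library size alone, 1 with no filter, 0 with limma voom and 10 with only the 2 groups. For old BI01 muscle at day 35 over uninjured (4) limma voom gave 1, and for the difference between ages at day 7 (1) no filter gave 0 and DESeq2 4. Leaving out 1 library gave 2 to 10 for age uninjured, 0 to 5 for age at day 7, 0 to 3 for age at day 35, 1 to 7, 0 to 5 and 1 to 9 for day 35 over uninjured in young, old vehicle and old BI01 muscle, and 0 to 3 for the difference between ages at day 7. At day 7 it gave 43 to 45 in young, 44 in old vehicle and 44 to 45 in old BI01 muscle. Of 4519 alternative values of 312 named results, 166 lost their call and 1 reversed: Pias1 at day 7 in young muscle, 0.26 with library size alone. The labels do not say whether a replicate number marks a shared source, and in no comparison did every same-numbered pair correlate above 0.1, so the numbers were not taken to pair the libraries. Correlations of deviations ran from -0.17 to 0.16; for day 35 in young muscle 3 of 4 were 0.15 to 0.16 and the other -0.03. All 3 shared numbers of day 7 in old vehicle muscle correlated best with their own number, a hint from the data only, and those of the other comparisons did not all do so. With the number as a block the counts were 43 at day 7 in old vehicle muscle, 5, 3 and 4 for day 35 over uninjured in young, old vehicle and old BI01 muscle, 0 for BI01 at day 35 and 38 for day 35 over day 7 in old vehicle muscle. Low uninjured counts limit the precision of Oas1g, Oas3 and Mx1.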
